A study of Mus musculus with 65 samples.

Results

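Axon guidance genes are the set described here: the semaphorins and their plexin and neuropilin receptors, the ephrins and Eph receptors, Slits and Robos, and netrins with the netrin-G and Unc5 proteins. Members were the gene symbols of the deposited count tables that begin with the family names (Sema, Plxn, Nrp, Efna, Efnb, Epha, Ephb, Slit, Robo, Ntn and Unc5), with antisense names ending in os left out. This gave 73 of 24465 symbols. Of these, 70 belong to the guidance families, and 3 match by name only (Unc50, Unc5cl and the antisense transcript Plxna4os1). The 70 were 7 class 3 semaphorins, 13 semaphorins of classes 4 to 7, 11 plexins and neuropilins, 5 A ephrins, 3 B ephrins, 9 EphA and 5 EphB receptors, 7 Slits and Robos, and 10 netrins, netrin-Gs and Unc5 receptors.

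Guidance cues are secreted or membrane-bound ligands that steer growing axons and migrating cells by attraction or repulsion. Class 3 semaphorins are secreted and act through neuropilin and plexin receptor complexes, whereas the other vertebrate semaphorins are mostly membrane-bound and bind plexins directly. Ephrins and Eph receptors signal between touching cells in both directions, Slits repel through Robo receptors, and netrins attract through Dcc or repel through Unc5 receptors. Many of these genes carry trimethylated lysine 27 of histone H3, the mark left by Polycomb repressive complex 2, in embryonic stem cells.

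The study grew mouse embryonic stem cells with leukemia inhibitory factor (day 0) and turned them into embryoid bodies with 10 uM all-trans retinoic acid, without that factor and under rotation. Embryoid bodies are aggregates of differentiating cells, so each RNA value is an average over a mixture, in which fewer cells of a type and less RNA per cell cannot be told apart. RNA libraries sequenced in 2019 came from wild-type cells at days 0, 3 and 6, with 2 libraries each. RNA libraries sequenced in 2020 came at days 6 and 0 from an H3.3K27A line (a histone variant H3.3 line with alanine in place of lysine 27), an H3.3A knockout line, both made with CRISPR/Cas9, and wild-type cells. Each had 2 libraries a day, except wild type at day 0, which had 1. How many clones stood behind each line is not given in the sources used here. Chromatin immunoprecipitation of H3.3K27me3 (a custom antibody for the trimethylated variant), H3K27me3, H3.3 and H3 was made in wild-type cells at days 6 and 0 in biological duplicate. For RNA, nothing in the labels says that libraries came from separate cultures, so p-values measure the spread between these libraries, which may be technical.

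Counts assigned to genes ranged from 6965704 to 12711698 per library in 2019 and from 14270549 to 22032871 in 2020. H3f3a, which encodes H3.3A, had 20.4 to 24.2 counts per 1000000 (CPM) in libraries of both edited lines, against 114 to 129 CPM in wild type of 2020; the count tables do not show whether the remaining RNA carries the edit. H3f3b, the other gene that encodes H3.3, had 499 to 599 CPM in H3.3K27A and 872 to 1130 CPM in the knockout, against 797 to 894 CPM in wild type of 2020. The summed level of 6 pluripotent cell markers was 137 to 145 CPM at day 6 of 2019, against 4950 to 5360 CPM at day 0. The 2 knockout libraries of day 6 stood apart from each other. Their chi-square statistic per degree of freedom was 47, against 2.3 to 8.32 within the other pairs of libraries, and the summed level of 9 neuron markers was 191 CPM in replicate 1 and 534 CPM in replicate 2. Comparisons with the knockout at day 6 are therefore also given without each of these libraries.

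A second limit touches individual members. The authors' deposited table of day 6 over day 0 expression lists 69 members at 1 CPM or more. Of these, 6 (8.7%) had under 10% of that level in the count tables, and 4 of the 6 were listed at 0 in the count tables at both days; over all genes the shares were 11.3% and 5.97%. The 6 were Nrp1, Robo2, Unc5b, Unc5d, Plxna3 and Unc50. The cause was not tested. Plxna3 and Unc50 passed the count filter and are in the counts of tested members. The 6 genes are otherwise described from the authors' deposited table, and no absence is read from their counts. For the other 63 members with a fold change in both, 62 had the same sign, with a median difference of 0.09 on the log2 scale.

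Promoter letters are shown for 5 members that rose steeply and had a K27me3 peak at the start, because the histone results further on turn on such promoters. All 5 carried H3K27me3 at day 0, and Unc5c, Epha3 and Robo3 carried H3.3K27me3 as well. Each line is the 250 bases before the RefSeq start on the gene's own strand (GRCm38.p6), 5′ to 3′, in lower case with every CG dinucleotide in capitals. The RefSeq start of Unc5c lies 348 bp downstream of the GENCODE start at which peaks were read, so its letters lie inside the GENCODE gene. Those of the others lie 0 to 71 bp away. Sema3a rose more than Slit2 but is not shown, because its nearest RefSeq start lies 271370 bp from the GENCODE start. CG dinucleotides are the sites of DNA methylation, and stretches dense in them are where Polycomb marks are commonly found in stem cells. Unc5c lies on the plus strand (chr3:141465314-141465563), Epha3 on the minus strand (chr16:63864176-63864425), Robo3 on the minus strand (chr9:37433176-37433425), Sema6d on the plus strand (chr2:124089719-124089968) and Slit2 on the plus strand (chr5:47982905-47983154).
Unc5c: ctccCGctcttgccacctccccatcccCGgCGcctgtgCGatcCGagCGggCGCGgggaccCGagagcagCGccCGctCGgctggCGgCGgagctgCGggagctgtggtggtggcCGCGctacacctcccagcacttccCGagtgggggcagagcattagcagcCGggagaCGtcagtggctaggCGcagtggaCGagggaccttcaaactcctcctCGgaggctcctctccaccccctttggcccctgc
Epha3: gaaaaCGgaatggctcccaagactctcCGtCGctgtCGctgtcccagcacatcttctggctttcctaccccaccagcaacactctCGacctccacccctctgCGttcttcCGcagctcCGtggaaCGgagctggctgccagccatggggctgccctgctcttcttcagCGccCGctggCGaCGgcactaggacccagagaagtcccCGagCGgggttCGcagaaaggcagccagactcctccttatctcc
Robo3: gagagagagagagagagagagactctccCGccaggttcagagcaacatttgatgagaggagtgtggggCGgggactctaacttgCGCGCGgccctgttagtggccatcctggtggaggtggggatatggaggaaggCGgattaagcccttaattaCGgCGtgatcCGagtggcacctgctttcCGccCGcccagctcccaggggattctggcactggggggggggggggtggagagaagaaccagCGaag
Sema6d: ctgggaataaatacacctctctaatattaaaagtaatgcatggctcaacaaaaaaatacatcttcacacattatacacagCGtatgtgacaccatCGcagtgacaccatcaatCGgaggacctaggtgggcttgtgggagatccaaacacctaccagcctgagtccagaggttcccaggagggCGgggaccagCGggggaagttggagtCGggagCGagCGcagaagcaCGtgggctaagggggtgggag
Slit2: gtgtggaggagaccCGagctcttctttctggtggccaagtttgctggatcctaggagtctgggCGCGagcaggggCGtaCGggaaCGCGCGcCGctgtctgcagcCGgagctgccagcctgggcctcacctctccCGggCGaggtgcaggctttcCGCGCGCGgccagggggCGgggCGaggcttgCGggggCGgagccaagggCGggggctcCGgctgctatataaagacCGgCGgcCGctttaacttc

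These stretches hold 23 (Unc5c), 16 (Epha3), 12 (Robo3), 9 (Sema6d) and 25 (Slit2) CG dinucleotides. Over the 63 members with a RefSeq promoter, taking the start with the most where a gene has several, the median was 17 (range 2 to 46), and over all 27025 symbols it was 6 (0 to 56). Among members, the 37 with H3.3K27me3 or H3K27me3 at day 0 had a median of 20 (4 to 46), and the 26 with neither had 12 (2 to 35). In the same windows, counted per RefSeq start and searched on both strands, CCGCCC, the letters of a GC box, were found in 56 of 79 member promoters (70.9%), against 32.7% of all 32851. AGGTCA and GGGTCA, core letters of sites that retinoic acid receptors can bind, were in 13.9% and 11.4% of member promoters and in 14% and 11.6% of all. A match is a description of letters and says nothing of binding.

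In the 2019 libraries, most guidance genes rose. At day 6 against day 0, 49 of the 65 members that could be tested were higher and 10 were lower (edgeR quasi-likelihood test, adjusted p below 0.05). That is 90.8% of members, in a comparison where 78% of all 13593 genes were called, 41.4% higher and 36.6% lower. The median log2 fold change was 2.51 for members and 0.09 for all genes. The other 8 members, Epha6, Nrp1, Ntn5, Plxna4os1, Plxnb3, Robo2, Unc5b and Unc5d, had too few counts for the test. Part of the rise was already present at day 3: 42 members were higher and 10 lower at day 3 against day 0 (80% of members, against 71.4% of all genes, 37.6% higher and 33.8% lower), with a median log2 fold change of 1.19. Between day 6 and day 3, 45 were higher and 12 lower (87.7% of members, against 57.3% of all genes, 29.4% higher and 27.9% lower). DESeq2 called 7 lower between days 6 and 3, with no share of all genes given here. Sums over cell type markers also changed over these days, not all in the same direction. From day 0 over day 3 to day 6, mesenchymal markers stood at 8.34 to 13.3, 150 and 1190 to 1380 CPM. Endoderm markers stood at 7.88 to 8.9, 417 to 445 and 558 to 584 CPM. Neural progenitor markers stood at 72.5 to 82.8, 194 to 201 and 540 to 583 CPM, and neuron markers at 438 to 488, 48 to 70.7 and 1200 to 1420 CPM, with Elavl4 at 0 at days 0 and 6. The neuron sum was lowest at day 3, but the markers in it differed. Stmn2 had 223 and 255 CPM at day 0 and 9.47 and 11.7 CPM at day 3. Tubb3, Nefl, Elavl3, Map2 and Rbfox3 were also lower at day 3 than at day 0. Dcx was higher, with 0.161 and 0 CPM at day 0 and 4.78 and 10.4 CPM at day 3. Isl1 was higher too, with 0.964 and 0.75 CPM at day 0 and 1.7 and 2.1 CPM at day 3. The part of all these markers in the rise of guidance genes was not tested. Of the other guidance genes, from a list outside the families, most rose too. Of 23 tested cues, receptors and coreceptors, 21 rose at day 6 against day 0 and 1 fell. Dcc, the attractive netrin receptor, rose by 8.7 ± 0.35 (log2 fold change ± SE) and Chl1, a neural cell adhesion molecule, by 7.87 ± 0.4. Of 36 tested intracellular effectors, 25 rose and 7 fell, among them the actin regulator Enah (-1.39 ± 0.07).

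**Figure D1:**
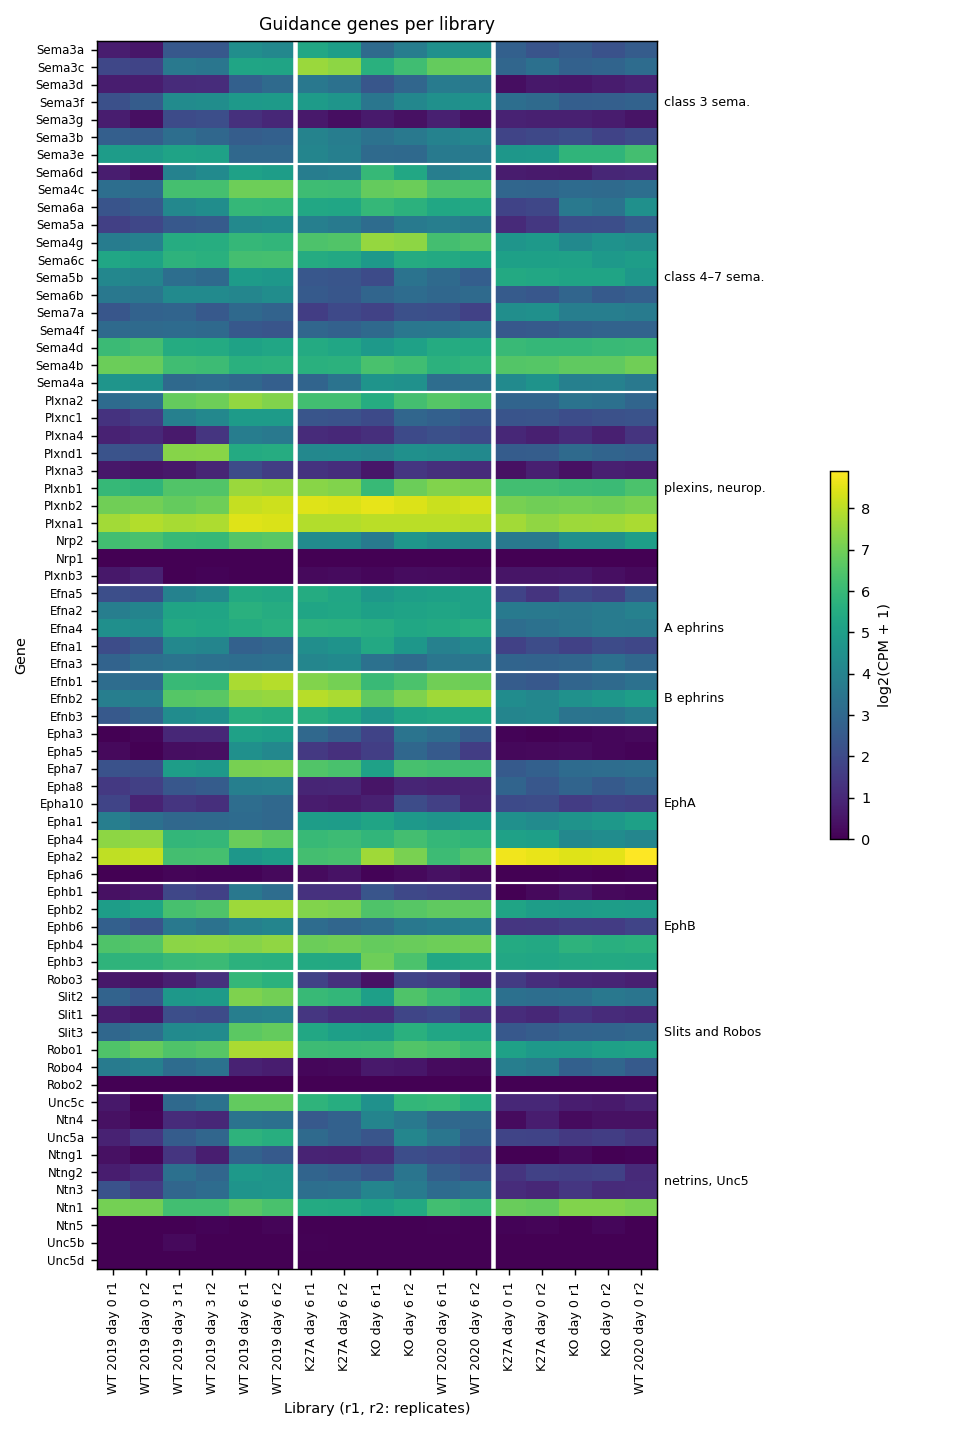
Heat map of log2(CPM + 1) for each guidance gene (rows, by family) in each RNA library (columns, by line, day and replicate); darker to brighter colour follows the scale bar. Most rows are brighter in the day 6 columns, while Epha2, Robo4 and Sema3e are brighter at day 0; Nrp1, Robo2 and Unc5d are listed at 0 throughout.

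Among the secreted class 3 semaphorins, 5 of 7 rose by day 6 and 1 fell. Sema3a, a repellent cue, had 0.643 and 0.469 CPM at day 0, 4.53 and 4.5 CPM at day 3, and 20.3 and 16.7 CPM at day 6. The libraries of the 3 days did not overlap, and the log2 fold change of day 6 over day 0 was 5.09 ± 0.29 (adjusted p = 4.69e-09). Sema3e, which signals through Plxnd1 in blood vessels, went the other way late. It had 29.4 and 28.4 CPM at day 0, 35.4 and 33.5 CPM at day 3, and 7.16 and 7.13 CPM at day 6. Its small rise to day 3 (0.26 ± 0.11, adjusted p = 0.0454) was followed by a fall of 2.27 on the log2 scale from day 3. Sema3c and Sema3d rose by 3.8 ± 0.17 and 3.3 ± 0.36 at day 6 against day 0, and Sema3b did not pass the test (0.02 ± 0.22).

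The membrane-bound semaphorins of classes 4 to 7 were divided: 8 of 13 rose and 4 fell, all 4 of them class 4. Sema6d had 0.643 and 0.281 CPM at day 0, 14.5 and 18.1 CPM at day 3, and 33.4 and 30.2 CPM at day 6. On the log2 scale it rose by 5.26 ± 0.32 to day 3, from 7 counts at day 0, and by a further 0.97 ± 0.14 to day 6. Sema4a, a class 4 semaphorin also studied in immune cells, had 24.3 and 22.1 CPM at day 0, 7.2 and 7.95 CPM at day 3, and 6.87 and 5.49 CPM at day 6 (day 6 over day 0, -1.89 ± 0.17, adjusted p = 2.88e-07). Sema4b, Sema4d and Sema4f also fell, whereas Sema4c rose by 3.91 ± 0.1 and Sema4g by 2.17 ± 0.11. Within class 6, Sema6a rose by 3.75 ± 0.15, and Sema6b and Sema6c by 0.75 ± 0.15 and 1.1 ± 0.09. Sema7a, the membrane-anchored class 7 member, was not called.

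All 9 plexins and neuropilins that could be tested were higher at day 6 than at day 0, with Plxna3 among them from few counts. Plxna2, a semaphorin receptor, had 7.71 and 9.09 CPM at day 0, 112 and 121 CPM at day 3, and 178 and 150 CPM at day 6, a log2 fold change of 4.26 ± 0.13. Plxnd1, the receptor of Sema3e, peaked at day 3 instead, with 3.86 and 3.65 CPM at day 0, 156 and 161 CPM at day 3, and 42.7 and 45.2 CPM at day 6. It was named after its values were seen. Its fall from day 3 to day 6 was 1.85 on the log2 scale (SE 0.08, adjusted p = 1.27e-09). The summed level of 7 endothelial markers also peaked at day 3. It was 96.3 to 121 CPM at day 0, 633 CPM in both libraries at day 3, and 51.2 to 61.4 CPM at day 6. Most of the day 0 sum was Pecam1, with 72.3 and 95.5 CPM at day 0 and 3.62 and 4.85 CPM at day 6. Tek and Plvap also ended below their day 0 levels, and Cd34 ended near its own. Cdh5, Kdr and Emcn ended above theirs, Kdr with 1.29 and 1.22 CPM at day 0 and 19.6 and 22.3 CPM at day 6. The part of these markers in the result was not tested. Nrp1, the binding receptor for class 3 semaphorins, was counted at 0 in all 17 libraries. The authors' deposited table gives Nrp1 278 CPM at day 6 and 0.854 CPM at day 0 (log2 fold change 7.87, adjusted p = 5.94e-172). For Plxna3 the authors' deposited table gives 85.6 CPM at day 6 and 26.6 CPM at day 0. The count tables give 2.78 and 0.382 CPM by plain library totals. The log2 fold change of Plxna3 was 1.44 in the authors' deposited table and 2.63 here, from 72 counts at days 0 and 6.

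Every B ephrin and 4 of 5 A ephrins rose. Efnb1, a transmembrane ephrin, had 8.2 and 7.59 CPM at day 0, 63.6 and 61.8 CPM at day 3, and 217 and 239 CPM at day 6 (4.86 ± 0.11, adjusted p = 1.12e-12). Efna5, a lipid-anchored ephrin, had 3.38 and 3 CPM at day 0, 14.5 and 17.3 CPM at day 3, and 41.8 and 40 CPM at day 6 (3.7 ± 0.17). Both rose in each interval, with no overlap between days. Efna3 was the A ephrin that did not pass the test (0.17 ± 0.2, adjusted p = 0.45).

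The EphA receptors were divided, with 5 of 8 tested members higher and 3 lower. Epha3 was near the counting limit at day 0, with 0 and 0.0937 CPM, reached 0.971 and 0.976 CPM at day 3, and stood at 33 and 30.6 CPM at day 6. It had 782 counts at day 6 and 1 count at day 0, 540-fold after scaling for depth (95% interval 96.6 to 21300, for counting error only). Epha5 was alike (469 counts and 1 count, ratio 324, interval 57.8 to 12800), and Epha7 rose by 5.24 ± 0.13. Epha2, a receptor abundant in stem cells and early embryos, had 265 and 283 CPM at day 0, 75.9 and 78 CPM at day 3, and 25.3 and 30.4 CPM at day 6. It fell in both intervals, by 3.31 in all on the log2 scale (SE 0.09, adjusted p = 7.58e-12). Epha4 fell and then partly returned, with 166 and 176 CPM at day 0, 58.8 and 60.3 CPM at day 3, and 117 and 102 CPM at day 6. Epha1 fell by 0.49 on the log2 scale. Of the 5 EphB receptors 4 rose, led by Ephb1 with 0.321 and 0.469 CPM at day 0, 2.75 and 2.33 CPM at day 3, and 11 and 8.14 CPM at day 6 (4.5 ± 0.38). Ephb2 rose by 2.51 ± 0.1, and Ephb3 did not pass the test (-0.09 ± 0.09).

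All 3 Slits rose, as did Robo1 and Robo3, while Robo4 fell. Slit2, a secreted repellent, had 6.11 and 4.31 CPM at day 0, 25.7 and 28 CPM at day 3, and 144 and 129 CPM at day 6 (4.77 ± 0.14). Its receptor Robo1 did not change by day 3 beyond the test's threshold, with 88.1 and 110 CPM at day 0, 87.6 and 96.1 CPM at day 3, and 221 and 218 CPM at day 6. Robo3, the receptor known for midline crossing in the hindbrain and spinal cord, appeared late, with 0.482 and 0.375 CPM at day 0, 0.728 and 1.35 CPM at day 3, and 60.3 and 50.8 CPM at day 6. Its log2 fold change was 7.03 ± 0.27 over the 6 days, of which 5.71 ± 0.2 came after day 3. Robo4, the endothelial Robo, had 12.1 and 13.6 CPM at day 0, 7.93 and 9.23 CPM at day 3, and 0.812 and 0.64 CPM at day 6 (-4.12 ± 0.27). Robo2 was counted at 0, and the authors' deposited table gives it 77.4 CPM at day 6 and 0.38 CPM at day 0 (log2 fold change 7.11, adjusted p = 3.18e-68).

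Of the 7 testable netrins, netrin-Gs and Unc5 receptors, 6 rose and Ntn1 fell. Unc5c, a repulsive netrin receptor, had 0.482 and 0 CPM at day 0, 7.28 and 9.16 CPM at day 3, and 109 CPM in both libraries at day 6. With 2667 counts at day 6 and 3 at day 0, it was 613-fold higher after scaling for depth (95% interval 210 to 2980). Ntn1, the netrin that attracts commissural axons, had 131 and 130 CPM at day 0, 73.6 and 72.6 CPM at day 3, and 96.9 and 80.5 CPM at day 6, lowest at day 3 and short of its starting level at day 6 (-0.56 ± 0.09). Unc5a, Ntn4 and Ntn3 rose by 5.19 ± 0.23, 5.59 ± 0.44 and 3.2 ± 0.23. The authors' deposited table lists Unc5d at 13.7 CPM at day 6 and 0.409 CPM at day 0 (log2 fold change 4.58, adjusted p = 1.7e-21), and Unc5b at 44.2 and 41.6 CPM (log2 fold change -0.16, adjusted p = 0.27).

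**Figure D2:**
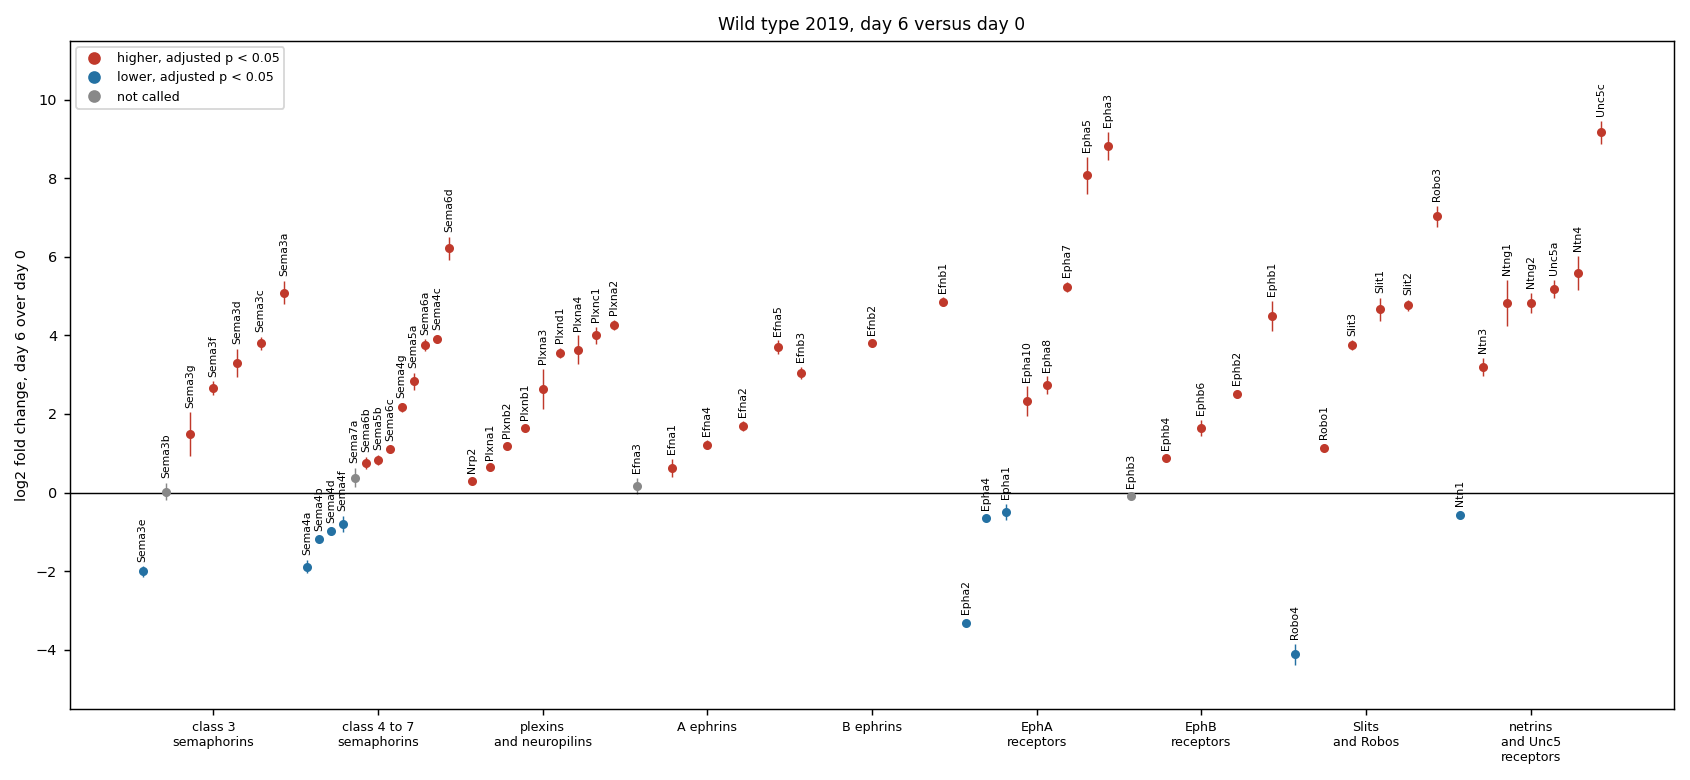
Log2 fold change of day 6 over day 0 in wild type of 2019 (vertical axis; points are edgeR estimates, bars are SE) for each tested member, by family along the horizontal axis. Unc5c (9.17), Epha3 (8.82) and Epha5 (8.07) stand highest, with 1 to 3 counts at day 0, and Robo4 (-4.12) and Epha2 (-3.31) lowest.

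At promoters, a larger share of members than of all genes had a K27me3 peak at either day. A promoter was taken as 1000 bp either side of the gene's start (GENCODE M21, mm10), and marked when a filtered peak of the authors touched it in both duplicates. H3.3K27me3 marked 6 members at day 6 (8.22%, against 2.62% of all 23581 promoters) and 23 at day 0 (31.5%, against 11.1%). H3K27me3 marked 27 members at day 6 (37%, against 10.9%) and 44 at day 0 (60.3%, against 17.9%). Of the members marked at day 0, 2 of 23 (8.7%) also had H3.3K27me3 at day 6 (Sema5b and Unc5d) and 27 of 44 (61.4%) also had H3K27me3. Over all promoters marked at day 0 the shares were 14.3% (374 of 2617) and 51.5% (2177 of 4229), the same contrast between the marks. At day 6, 3 members had both marks, 3 H3.3K27me3 alone and 24 H3K27me3 alone (1.49%, 1.13% and 9.44% of all promoters). At day 0, 23 had both, 0 had H3.3K27me3 alone and 21 had H3K27me3 alone (9.44%, 1.66% and 8.5% of all promoters). H3.3 marked 15 members at day 6 (20.5%, against 25.1%) and 26 at day 0 (35.6%, against 37.5%), close to the share of all promoters. H3 peaks touched 1 member at day 6 (2.12% of all promoters) and 2 at day 0 (5.3%). The counts rest on the requirement for both duplicates: with a peak in at least 1 duplicate, H3.3K27me3 marked 15 members at day 6 and 41 at day 0. The share of all promoters under this looser rule was not counted. The day 6 H3.3K27me3 libraries were the shallowest of the 16 (33.62 and 37.76 M tags, in units of 1000000, against 54.16 to 81.65 M in the rest), yet held 26215 and 14483 filtered peaks, against 14796 and 12690 at day 0. The part of depth in the lower day 6 count was not tested.

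The marks were spread unevenly over the families. EphA promoters had H3.3K27me3 at 0 of 9 genes at day 6 and 6 of 9 at day 0, yet H3K27me3 at 6 and 7 of 9. Netrin and Unc5 promoters had H3.3K27me3 at 2 of 10 at day 6 and 6 of 10 at day 0, and H3K27me3 at 7 and 9 of 10. EphB and B ephrin promoters had no H3.3K27me3 at either day by this rule. At 13 members no antibody had a peak in both duplicates at either day, and at 5 of these (Efnb1, Plxna3, Plxna4os1, Plxnb3 and Sema3g) none had a peak in any duplicate. Efnb1 thus rose without a called peak at its start. It lies on chromosome X, as do Plxna3 and Plxnb3, the only other members there. Whether peaks on that chromosome were called as elsewhere was not tested. By the rule of both duplicates, 4 promoters had H3.3K27me3 at day 6 and not at day 0 (Ntn1, Robo1, Sema3a and Sema6d; 1.04% of all promoters), and 0 had H3K27me3 at day 6 and not at day 0 (1.7% of all promoters). Their day 6 enrichments were 2.58 to 2.79, where the median peak of both libraries had 2.58. Among members, 2.58 was also the lowest H3.3K27me3 enrichment of a day 6 peak. Day 0 peaks reached down to 2.09 in replicate 1 (Slit1) and 2.37 in replicate 2 (Efna5). A day 0 peak below 2.58 may thus lie under what was called at day 6, and this was not tested. Ntn1 and Sema6d had an H3.3K27me3 peak in 1 duplicate at day 0 as well (2.44 and 2.32), and Sema6d had one in both duplicates at another transcript's start, so these 2 were not gains by every rule.

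Marked promoters included genes that rose. Of the 49 members higher at day 6 of 2019, 20 had H3K27me3 at day 6 and 35 at day 0, and 4 and 18 had H3.3K27me3. Of the 10 that fell, 1 had H3K27me3 at day 6 and 2 at day 0, and H3.3 was present at 2 at day 6 and 7 at day 0. Such shares among all genes that rose or fell were not counted. Whether this contrast is particular to guidance genes is thus not shown. Unc5c had an H3K27me3 peak with enrichments of 2.59 and 2.31 over the library mean at day 6, against 2.99 and 3.38 at day 0, in the peak caller's own values. H3.3K27me3 at Unc5c had no peak at day 6 and enrichments of 2.32 and 2.68 at day 0. The 2.32 was below 2.58, the lowest day 6 H3.3K27me3 enrichment among members. Robo3 had H3K27me3 enrichments of 2.74 and 3.39 at day 6 and 4.56 and 6.76 at day 0. At Epha3 the H3K27me3 enrichments were 3.02 and 2.62 at day 6 and 4.72 and 4 at day 0. These 3 genes thus had a K27me3 peak at the start at day 6, in a population that is a mixture of cells. Their RNA was high at day 6 of 2019, whereas the chromatin libraries carry dates of 2020. In wild type of 2020 at day 6, Unc5c had 61.9 and 46.5 CPM, Epha3 8.05 and 4.97 CPM, and Robo3 2.12 and 0.959 CPM. Which RNA set is nearer to the chromatin samples was not tested. Slit2 and Sema6d had H3K27me3 in both duplicates at day 0 and in 1 duplicate at day 6; at another transcript's start, Sema6d had it in both duplicates at day 6.

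**Figure D3:**
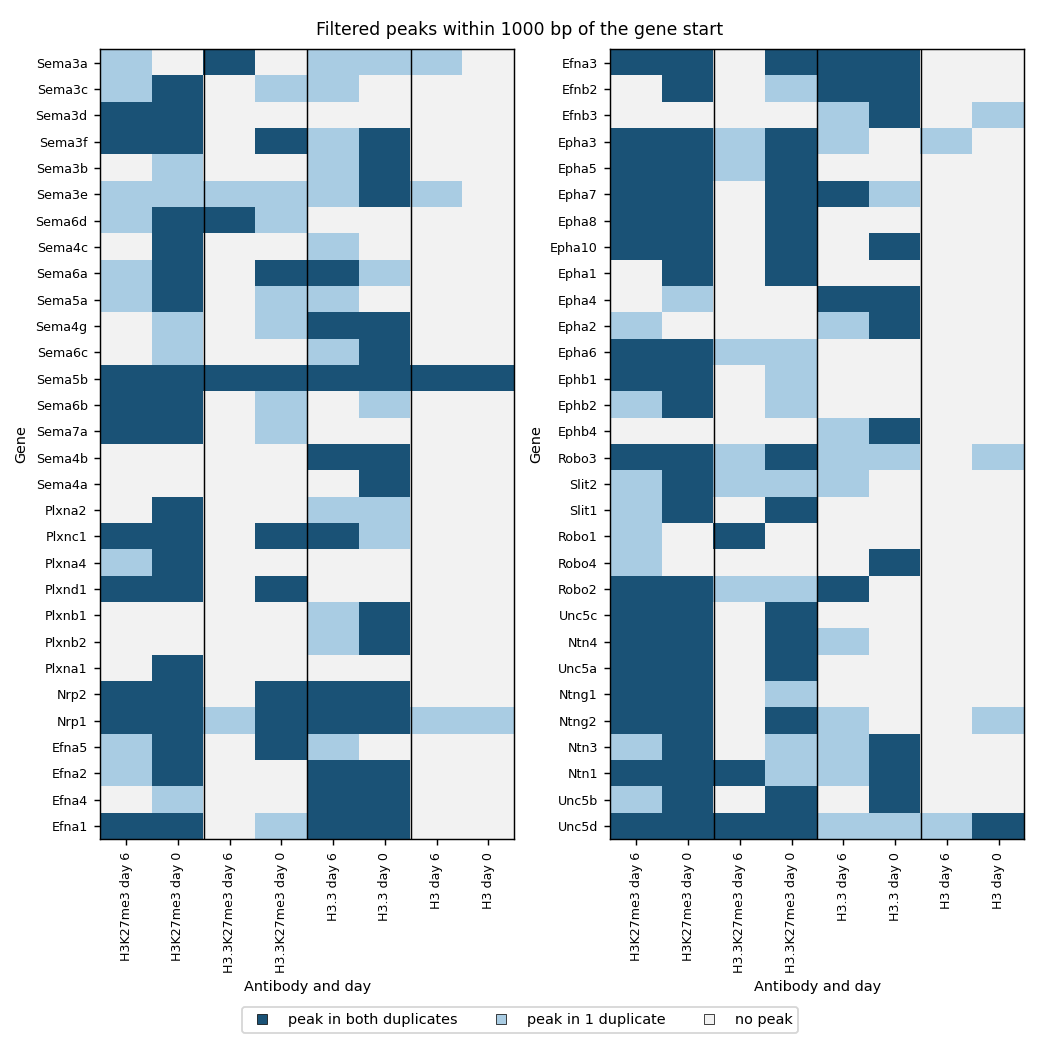
Filtered peaks within 1000 bp of each member's start (rows) for each antibody and day (columns); shading tells a peak in both duplicates, in 1 duplicate or in neither. H3K27me3 columns are the fullest (27 members at day 6, 44 at day 0), and the H3.3K27me3 column of day 6 has 6 members in both duplicates.

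Wider regions gave the same order of days for H3K27me3. In the authors' deposited table for H3K27me3, 49 members had a region, of which 32 were lower at day 6 and 0 higher by the authors' false discovery rate (below 0.05, DiffBind). Over all regions of that authors' deposited table, 30.5% were lower and 2.57% higher at day 6. The largest difference was at Sema4c, where the authors' deposited table gives signals of 192.8 and 207.8 at day 6 and of 428 and 537.1 at day 0, a log2 difference of 1.27 taken as day 0 minus day 6. Sema4c RNA was among the class 4 semaphorins that rose. In the authors' deposited table for H3.3, 43 members had a region, with 24 members lower and 6 higher at day 6 (over all regions, 36.4% were lower and 13.9% higher). The 6 were Robo2, Nrp1, Sema6a, Plxna2, Epha7 and Ntn4, all higher in RNA at day 6 of 2019 by the count tables or, for Nrp1 and Robo2, by the authors' deposited table. Of all 65 tested members, 49 were higher in RNA, so most members would show this. Of the 24 members with a lower H3.3 region in the authors' deposited table, 13 were also higher in RNA, among them Robo3 (7.03), Ntn3 (3.2) and Efnb3 (3.05 on the log2 scale), 6 were lower, 3 were not called and 2 could not be tested. At Robo2 the H3.3 signal in the authors' deposited table was 446.2 and 411.1 at day 6 and 260.1 and 244 at day 0. At Epha2 it was 3030 and 2812 at day 6 and 4541 and 4543 at day 0, the largest fall of H3.3 among members. Some regions are far wider than a promoter: the authors' deposited table has the Nrp1 region of H3K27me3 at 476637 bp, and Efna1, Efna3 and Efna4 share 1 H3.3 region.

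In the 2020 libraries the rise recurred in every line. At day 6 against day 0, 42 members were higher and 11 lower in H3.3K27A (81.5%). Of all 14760 genes 76.7% were called there, 39.5% higher and 37.2% lower. In the H3.3A knockout 43 were higher and 9 lower (80%, against 77.2% of all genes, 40.8% higher and 36.4% lower). In wild type 40 were higher and 9 lower (75.4%, against 70.8% of all genes, 36% higher and 34.8% lower). Median log2 fold changes of members were 1.44, 1.41 and 1.29. The wild-type change rests on 1 library at day 0, which the fit takes to vary like the other groups. Efnb1 and Plxna2 rose and Epha2, Sema3e, Robo4 and Ntn1 fell in wild type of 2020 as in 2019.

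Between lines at day 6, the H3.3A knockout differed from wild type at more members than H3.3K27A did in the fit of all 11 libraries, but not with only the groups compared (0 members for the knockout, and 7 higher and 8 lower for H3.3K27A). In the fit of all 11 libraries, the knockout had 12 members higher and 9 lower than wild type (32.3% of members, against 11.4% of all genes, 6.98% higher and 4.42% lower). Of 7 class 3 semaphorins, 5 were lower in the knockout than in wild type and 0 higher; Sema3b and Sema3g were not called. Sema3a had 7.49 and 12.8 CPM in the knockout, against 21.4 and 20.9 CPM in wild type (-1.05 ± 0.24, adjusted p = 0.0262). Sema3c had 49.5 and 71.8 CPM in the knockout, against 110 and 115 CPM in wild type (-0.89 ± 0.16), and Sema3d had 4.19 and 6.78 CPM, against 12.2 and 11.3 CPM in wild type (-1.09 ± 0.24). Sema3e and Sema3f were also lower, by 0.65 and 0.7 on the log2 scale. Both knockout libraries stood below both wild-type libraries for each of the 5. This describes members already called lower and is no further test. The share of all genes with such separation is not given here. The B ephrins Efnb1 (64.6 and 82.4 CPM in the knockout, against 125 and 119 CPM in wild type) and Efnb2 were lower too. Of 13 semaphorins of classes 4 to 7, 6 were higher and 1 lower. Sema6d had 61.2 and 39.9 CPM in the knockout, against 13.1 and 16 CPM in wild type (1.79 ± 0.21, adjusted p = 0.00175). Sema4a had 23.5 and 21.9 CPM in the knockout, against 8.01 and 8.63 CPM in wild type (1.45 ± 0.19). Ephb3 had 121 and 83.5 CPM in the knockout, against 38.8 and 43.9 CPM in wild type (1.3 ± 0.15). Epha2 was likewise higher in the knockout, by 1.1 ± 0.17, with 200 and 137 CPM against 68.2 and 89.2 CPM in wild type.

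Sums of some other cell markers differed too. The summed level of 7 endoderm markers was 1040 to 1820 CPM in the knockout and 712 to 813 CPM in wild type at day 6, with 5 of the 7 called higher and none at 0. The 6 pluripotent cell markers summed to 249 to 470 CPM in the knockout and 144 to 175 CPM in wild type, with 3 called higher. Their part in the result was not tested. Without replicate 1 of the knockout at day 6, 16 members were higher and 10 lower than wild type (40% of members, against 14.4% of all genes). Without replicate 2, 14 were higher and 30 lower (67.7%, against 40.9% of all genes). In both of these fits, 10 were higher (Efna1, Epha2, Ephb3, Sema4a, Sema4b, Sema4c, Sema4g, Sema6a, Sema6d and Unc5cl) and 10 lower (Efnb1, Efnb2, Ntn1, Plxnb1, Sema3a, Sema3c, Sema3d, Sema3e, Sema3f and Sema4d). The calls also lean on the other groups for their spread: without replicate 1 of wild type at day 6, 4 were higher and 1 lower (7.69%, against 1.43% of all genes). With only the 4 libraries compared, edgeR called 0 members in either direction (0.022% of all genes), with 12 higher and 10 lower at an unadjusted p below 0.05. DESeq2 on all 11 libraries called 11 higher and 11 lower. Shares of all genes at that unadjusted p and in DESeq2 are not given here, so these counts cannot be set against a background.

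H3.3K27A stood closer to wild type at day 6 in the fit of all 11 libraries, with 1 member higher and 2 lower (4.62%, against 2.04% of all genes, 1.13% higher and 0.908% lower). Ephb2 had 149 and 141 CPM in H3.3K27A, against 106 CPM in both wild-type libraries (0.45 ± 0.09, adjusted p = 0.0411). Ntn1 had 43.1 and 42 CPM in H3.3K27A, against 73.7 and 64.7 CPM in wild type (-0.7 ± 0.1, adjusted p = 0.0135), and Sema4f had 6.65 and 5.84 CPM, against 11 and 12.9 CPM in wild type (-0.93 ± 0.2, adjusted p = 0.0486). Ntn1 was thus lower in both edited lines, with 34.4 and 41.6 CPM in the knockout; these comparisons share the wild-type libraries. These calls moved in both directions with the libraries in the fit. Leaving out any 1 of the 4 libraries compared ended all 3 calls, and leaving out any 1 day 0 library of the edited lines ended those of Ephb2 and Sema4f, as did the replicate block. With replicate 1 of the knockout at day 6 left out, H3.3K27A had 7 members higher and 11 lower than wild type (27.7%, against 14.3% of all genes). With replicate 2 left out it had 8 and 11 (29.2%, against 14.3%), and with only the groups compared 7 and 8 (23.4%, against 16%). The 7 higher without each knockout library in turn were Efna1, Efna3, Epha7, Ephb2, Sema3a, Sema3c and Sema3e, and the 11 lower were Epha5, Epha10, Ephb6, Ntn1, Ntng1, Plxna2, Plxna4, Sema4c, Sema4f, Sema5b and Sema6b. A count of 3 in the full fit does not show that the other members were alike in both lines. Neuron markers summed to 133 to 183 CPM in H3.3K27A, with Elavl4 at 0, and to 195 to 344 CPM in wild type, also with Elavl4 at 0; their part in the result was not tested.

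Set against each other at day 6, H3.3K27A had 12 members higher and 14 lower than the knockout (40%, against 18.7% of all genes, 9.03% higher and 9.64% lower). Sema3a had 39.2 and 31.1 CPM in H3.3K27A, against 7.49 and 12.8 CPM in the knockout (1.79 ± 0.25, adjusted p = 0.00139). Sema3c had 189 and 166 CPM in H3.3K27A, against 49.5 and 71.8 CPM in the knockout (1.55 ± 0.16), and 5 of 7 class 3 semaphorins were higher. Efna3 had 16 and 17.9 CPM in H3.3K27A, against 9.06 and 7.45 CPM in the knockout (1.04 ± 0.17). On the lower side, Sema6d had 12.7 and 13.6 CPM in H3.3K27A, against 61.2 and 39.9 CPM in the knockout (-1.94 ± 0.21), and 7 of 13 semaphorins of classes 4 to 7 were lower. Sema4a had 6.29 and 9.51 CPM in H3.3K27A, against 23.5 and 21.9 CPM in the knockout (-1.53 ± 0.19). Robo4 was lower at a low level, with 6 counts in H3.3K27A and 20 in the knockout over 2 libraries each. Ephb3 and Epha2 were lower by 1.31 and 1.14 on the log2 scale. Without replicate 1 of the knockout, 13 were higher and 26 lower (60%, against 26.4% of all genes), and without replicate 2, 25 and 14 (60%, against 39.5%); in both fits 12 were higher and 11 lower. Without replicate 1 of H3.3K27A at day 6, 7 were higher and 7 lower (21.5%, against 4.88% of all genes), and with only the 4 libraries compared edgeR called 0 higher, with 11 at an unadjusted p below 0.05, and 3 lower (4.69%, against 1.54% of all genes); DESeq2 on all 11 libraries called 13 higher and 10 lower. For the counts at an unadjusted p and in DESeq2, shares of all genes are not given here. Of 7 endoderm markers, 6 were lower in H3.3K27A, which summed to 637 to 706 CPM against 1040 to 1820 CPM in the knockout. Pluripotent cell markers summed to 149 to 180 CPM in H3.3K27A, against 249 to 470 CPM in the knockout, and neuron markers to 133 to 183 CPM in H3.3K27A, against 191 to 534 CPM in the knockout. The part of these markers in the result was not tested.

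**Figure D4:**
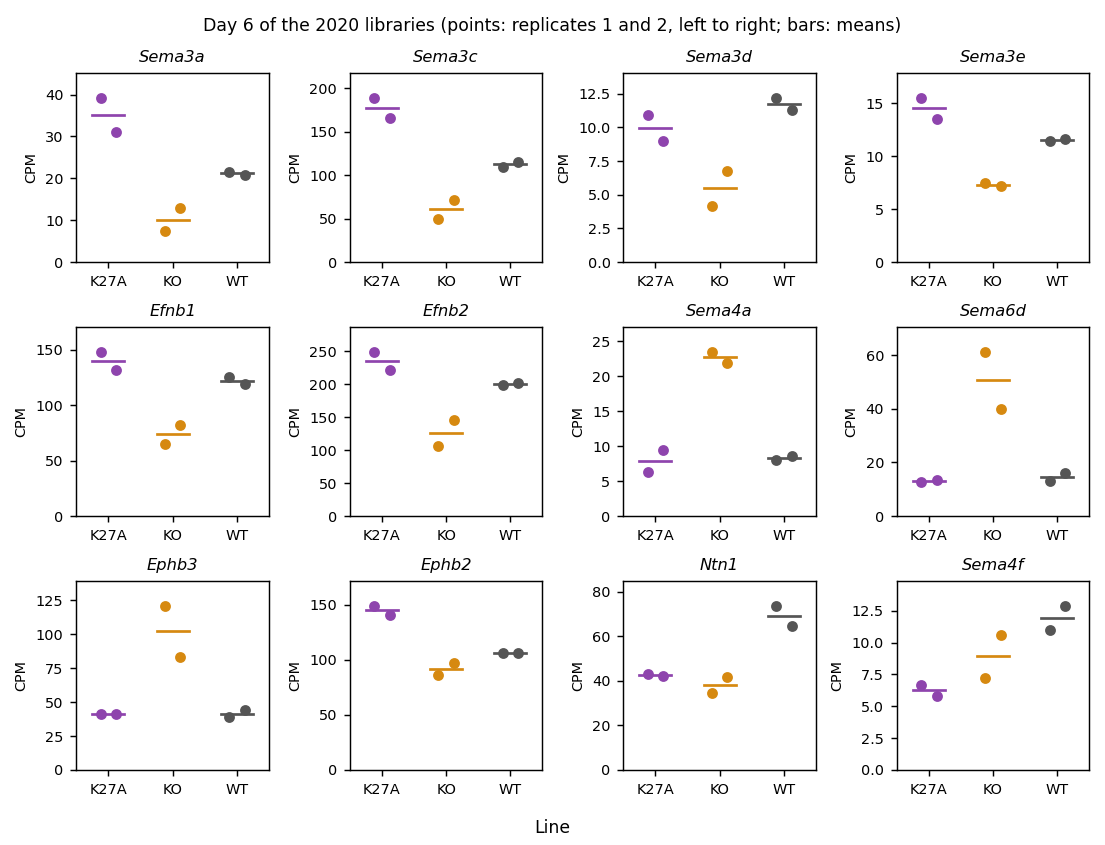
CPM (vertical axes, from 0) of 12 members in the day 6 libraries of 2020 by line (H3.3K27A, H3.3A knockout, wild type); points are replicates 1 and 2 and bars are means of 2 libraries. The knockout is lowest for Sema3a, Sema3c and Sema3d and highest for Sema4a, Sema6d and Ephb3, and both edited lines lie below wild type for Ntn1.

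At day 0 few members differed between lines. H3.3K27A had 2 higher (Epha4 and Robo4) and 3 lower (Sema3e, Sema5a and Sema6a) than wild type (7.69%, against 1.73% of all genes, 0.569% higher and 1.17% lower), with 1 wild-type library in the comparison. Sema6a had 2.48 and 2.76 CPM in H3.3K27A and 11.3 and 9.5 CPM in the knockout, against 21.1 CPM in wild type. It was lower than wild type by 3.01 on the log2 scale in H3.3K27A (SE 0.17, adjusted p = 3.4e-05) and by 1.03 in the knockout (SE 0.15, adjusted p = 0.038). Sema3e had 25.6 and 26 CPM in H3.3K27A and 56.6 and 56.4 CPM in the knockout, against 74.8 CPM in wild type; it was lower in H3.3K27A by 1.53 on the log2 scale (SE 0.11). In the knockout against wild type, Sema6a was the 1 call (1.54%, against 0.122% of all genes, 0.0271% higher and 0.0949% lower): edgeR called 0 higher, with 0 at an unadjusted p below 0.05, and DESeq2 also called 0 higher. The Sema6a call held in DESeq2 and without either knockout library of day 6, but was lost when any 1 of the other 8 libraries that could be left out was dropped (adjusted p = 0.11 to 0.335), with RLE factors (adjusted p = 0.0526) and with the replicate block (adjusted p = 0.0769). Between the edited lines, Epha4 and Robo4 were higher and Sema3e and Sema6a lower in H3.3K27A (6.15%, against 1.27% of all genes, 0.461% higher and 0.806% lower). Epha4 had 33.7 and 32 CPM in H3.3K27A, against 16.7 and 19 CPM in the knockout. Leaving out any 1 day 0 library of these lines left 0 higher, while Sema3e and Sema6a remained lower without any 1 library. Without replicate 1 or replicate 2 of the knockout at day 6, 5 were higher and 9 or 10 lower (21.5% and 23.1%, against 7.83% and 7.84% of all genes). Without either knockout library of day 6 in turn, H3.3K27A against wild type had 5 members higher and 10 lower at day 0 (23.1%, against 8.67% of all genes), and 5 and 10 also with only the groups compared (25%, against 10.8%). Leaving out either H3.3K27A library of day 0 left 0 higher and 2 lower.

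The change over 6 days differed between lines for some members. In H3.3K27A against wild type, the day 6 over day 0 change was greater for Sema3e (difference of log2 changes 1.87 ± 0.15, adjusted p = 0.000869) and Sema6a (2.98 ± 0.2, adjusted p = 0.0006). These are 3.08% of members, against 0.766% of all genes, 0.549% greater and 0.217% smaller. edgeR called 0 smaller; at an unadjusted p below 0.05 it had 12 greater and 6 smaller, and DESeq2 called 7 and 1. For the counts at an unadjusted p and in DESeq2, shares of all genes are not given here. Sema3e and Sema6a had both started lower in H3.3K27A than in wild type, which had 1 library at day 0. For Sema6a that library had 21.1 CPM, against 4.02 and 4.69 CPM at day 0 in wild type of 2019. At day 6 Sema6a had 39.9 and 37.4 CPM in H3.3K27A and 38.7 and 40.2 CPM in wild type. Between H3.3K27A and the knockout, 8 members had a greater and 7 a smaller change in H3.3K27A (23.1%, against 5.39% of all genes, 3.23% greater and 2.16% smaller). The greater ones included Sema3e (2.12 ± 0.14), Sema3a (1.64 ± 0.39) and Efnb1 (1.47 ± 0.21), and the smaller ones Robo4 (-2.8 ± 0.46), Sema4a (-2.07 ± 0.27) and Epha2 (-1.29 ± 0.23). Leaving out 1 library at a time gave 3 greater (without replicate 1 of H3.3K27A at day 6, replicate 2 of H3.3K27A at day 0 or replicate 2 of the knockout at day 0) to 23 greater (without replicate 2 of the knockout at day 6). It gave 2 smaller (without replicate 1 of H3.3K27A at day 6) to 12 smaller (without replicate 1 of the knockout at day 6).

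Wild-type cells gave a different size of response in the sequencing of 2020 and of 2019. The day 6 over day 0 change was greater in 2020 for 8 members and smaller for 31 (60%, against 33% of all 14451 genes, 13.1% greater and 19.9% smaller), with a median difference of -0.65 on the log2 scale. Epha8, an EphA receptor, had 0.809 and 0.872 CPM at day 6 and 6.03 CPM at day 0 in 2020, and 13.4 and 14.2 CPM at day 6 and 1.77 and 2.25 CPM at day 0 in 2019, so it fell in 2020 and rose in 2019 (difference -5.52 ± 0.35, adjusted p = 2.01e-06). Sema5b likewise fell in 2020, with 7.55 and 5.41 CPM at day 6 and 25.7 CPM at day 0, and rose in 2019, with 28.9 and 26.3 CPM at day 6 and 16.6 and 15.1 CPM at day 0 (-2.75 ± 0.24). Epha4 went the other way, with 59.6 and 56.4 CPM at day 6 and 16.1 CPM at day 0 in 2020, a rise of 1.85 ± 0.17, against its fall in 2019 (2.54 ± 0.15). Sema6a rose in both years, less in 2020 (-2.8 ± 0.18). Robo3 reached 2.12 and 0.959 CPM at day 6 in 2020, against 60.3 and 50.8 CPM in 2019.

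Neuron markers summed to 195 to 344 CPM at day 6 in 2020, against 1200 to 1420 CPM in 2019, with Elavl4 at 0 in both. Neural progenitor markers summed to 159 to 195 CPM in 2020 and 540 to 583 CPM in 2019, and mesenchymal markers to 378 to 415 CPM in 2020 and 1190 to 1380 CPM in 2019. Already at day 0, 6 mesenchymal markers summed to 361 CPM in the library of 2020 and to 8.34 to 13.3 CPM in 2019. Their part in the result was not tested, and sequencing date, depth and anything else that changed between the 2 sets cannot be told apart.

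**Figure D5:**
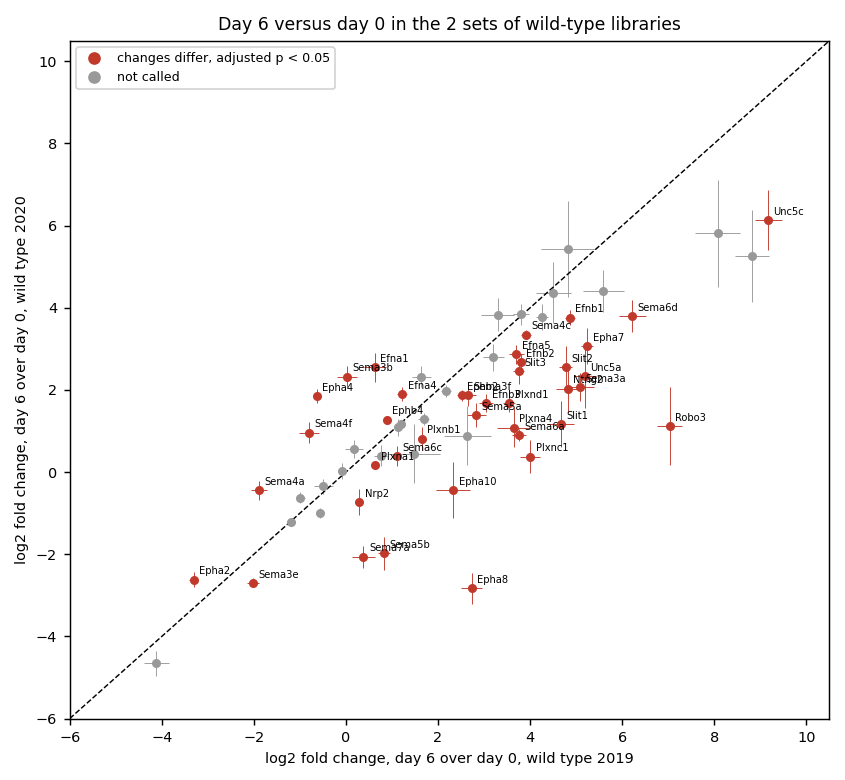
Log2 fold change of day 6 over day 0 for each tested member in wild type of 2020 (vertical axis) against wild type of 2019 (horizontal axis); red points are members whose changes differ at adjusted p below 0.05, and the dashed line marks equal changes. Most red points lie below the line (31 members, against 8 above), with Epha8 and Robo3 far below it and Epha4 above it.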

How the data were processed

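Reads of poly(A) RNA (directional kit, per the labels' protocols) and of immunoprecipitated chromatin were aligned to mm10, with STAR 2.5.2a, HTSeq, MACS2, DiffBind, DESeq2 and deepTools named in the submitters' processing notes. The deposited RNA values are counts per gene symbol; whether counting used strand and which annotation it used are not given in the sources used here, so an overlapping or antisense gene cannot be told apart. Reads assigned to no gene (25.7 to 43.3% in 2019, 11.3 to 16.8% in 2020) or to several (7.4 to 9.5% and 10.7 to 11.9%) were left out of library sizes. Counts were tested with edgeR 4.0.16 (R 4.3.3; filterByExpr, TMM factors, quasi-likelihood F-test, Benjamini-Hochberg adjustment over all genes tested; called below 0.05), with 1 mean per group: 6 libraries of 2019, 11 of 2020, and 7 of wild type for the difference between years. Each CPM is a count divided by its library's TMM-scaled total, unless called plain. DESeq2 1.42.0 was an alternative. The steps were tested on simulated data. Depth limits each count's precision; intervals cover counting error only.

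The authors' deposited RNA table gives CPM, log2 fold changes, p-values and adjusted p-values for day 6 over day 0; its CPM are the authors' means. Per the file headers, peaks were called per library, after 3 runs were joined, with MACS2 2.2.6 without a control, and hold a pileup signal, a fold enrichment (a ratio to the library mean) and −log10 p. The filtered peaks deposited by the authors have their own score. The authors' deposited DiffBind tables hold log2 signal, a log2 difference of day 0 minus day 6, p-values and false discovery rates; none for H3.3K27me3 was used here. Promoter sequences are RefSeq's for GRCm38.p6; 63 members matched.

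Members, lists and tests were chosen with earlier results of these data known. Values in every library are given for 28 members: the largest rise and fall in each family in 2019 and the 3 largest each way between lines at day 6 (at least 100 counts, no overlap between groups), 4 with the smallest p between years, and fixed cue and receptor pairs; other members were named for their counts or after their values were seen. Alternatives were other normalization, filters, tools, a replicate block, fewer groups, and leaving out each library; for peaks, the window, overlap, duplicates and enrichment.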

Additional observations from a re-analysis of the deposited data

Results flagged for a closer look

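Members whose day 6 over day 0 change differed between groups, by edgeR's test of the difference of changes, are listed here with the size of the difference on the log2 scale. In H3.3K27A against wild type 2 members had a greater change, Sema3e (1.87) and Sema6a (2.98). In H3.3K27A against the H3.3A knockout 8 members had a greater and 7 a smaller change. Greater ones among the named members were Sema3e (2.12), Sema3a (1.64), Efnb1 (1.47), Sema6a (1.45), Efna3 (1.35) and Sema3c (1.2). Smaller ones were Robo4 (-2.8), Sema4a (-2.07), Epha2 (-1.29), Ephb3 (-1.24) and Epha4 (-0.89). In wild type of 2020 against 2019 the change was greater for 8 members and smaller for 31, and the smallest p-values belonged to Epha4 (2.54), Sema6a (-2.8), Epha8 (-5.52) and Sema5b (-2.75). The wild-type comparisons of 2020 rest on 1 library at day 0.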

How the results depend on the processing

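Of 206 values of single members, 3017 recalculations under other settings gave 2807 on the same side of the threshold, 210 no longer past it and 0 of opposite sign. Counts of members called moved more, and so did shares of all genes. With only the groups compared, H3.3K27A against the knockout at day 0 had 22.4% of members called, against 8.06% of all genes. In the fit of all 11 libraries these were 6.15% and 1.27%. Shares with only the groups compared at day 6 are given above. For DESeq2, no filter, RLE factors and the replicate block, shares of all genes are not given here. With only the groups compared, H3.3A knockout against wild type had 0 higher and 0 lower at day 6 and 1 and 6 at day 0; H3.3K27A against the knockout had 0 and 3 at day 6 and 6 and 7 at day 0; and H3.3K27A against wild type had 7 and 8 at day 6 and 5 and 10 at day 0. DESeq2 and no filter on low counts gave for H3.3K27A against wild type 3 and 3 higher at day 6, 4 lower there without the filter, 7 and 8 lower at day 0, and 7 and 7 greater and 1 and 1 smaller changes; both gave 4 lower for H3.3K27A against the knockout at day 0. DESeq2 called 7 members lower between days 6 and 3 of 2019, against 12. RLE factors left 0 lower in the knockout against wild type at day 0.

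Leaving out 1 library at a time gave, for the knockout against wild type, 4 to 16 higher and 1 to 30 lower at day 6, and 0 to 0 higher and 0 to 2 lower at day 0. For H3.3K27A against the knockout it gave 7 to 25 higher and 7 to 26 lower at day 6, 0 to 5 and 2 to 10 at day 0, and 3 to 23 greater and 2 to 12 smaller changes. For H3.3K27A against wild type it gave 0 to 8 and 0 to 11 at day 6, 0 to 5 and 2 to 10 at day 0, and 2 to 11 greater and 0 to 6 smaller changes. Day 6 over day 0 counts stayed within 1.5 times in each line and year. In the comparisons between lines at day 6, the share of all genes called also moved as libraries were left out, as given above. These ranges are thus not particular to guidance genes.

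A replicate block left 0 higher and 1 lower in H3.3K27A against wild type at day 6, 1 higher in H3.3K27A against wild type and against the knockout at day 0, and 0 lower in the knockout against wild type at day 0. Deviations from the group mean of libraries of the same number correlated at -0.03 to 0.1 in 2019 and -0.52 to 0.23 in 2020. With 2 libraries a group, this cannot tell whether such libraries shared a culture or a batch.

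Promoter counts depend on the duplicates. A peak in at least 1 duplicate gave, at days 6 and 0, 15 and 41 members for H3.3K27me3, 46 at day 6 for H3K27me3, 42 and 40 for H3.3, and 6 and 7 for H3. Replicate 1 alone gave 13 and 37 for H3.3K27me3, 34 at day 6 for H3.3, and 2 and 7 for H3; replicate 2 alone gave 23 for H3.3 and 5 for H3 at day 6. A window of 2500 bp gave 3 for H3 at day 6. Peaks with an enrichment of at least 5 left 0 for each antibody and day except 4 for H3K27me3 at day 0. The cause of these shifts was not tested. Shares of all promoters under these other rules were not counted, so the counts cannot be set against a background.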
